A study of Homo sapiens with 6 samples.

Results

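The WNT pathway genes on the array were followed from drug-sensitive NCI-H1975 cells to a clone resistant to WZ4002. The members are all probe sets whose single platform gene symbol is WNT or FZD with a number, DKK1 to DKK4, an SFRP gene or FRZB, or one of a short list of co-receptors, destruction complex genes and TCF/LEF factors. These came to 72 probe sets of 42 genes, out of 22277 probe sets on the array. The line NCI-H1975 comes from a human lung adenocarcinoma, of the non-small cell kind, and carries mutant EGFR; WZ4002 is an EGFR kinase inhibitor. Both groups were the same line in medium with 5% serum: 3 parental samples, sensitive to the drug, and 3 samples of WZR6, a single clone taken after growth in rising WZ4002 and recorded as resistant. The labels do not say whether the drug was present at harvest or whether samples of a group were separate cultures. Each p-value sets a difference against the spread between these samples, which limma partly shares across genes, and that spread may be technical. Because WZR6 is 1 clone, a difference tied to resistance and one tied to that clone cannot be told apart.

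WNT proteins are secreted, lipid-modified signals that bind frizzled receptors. With the co-receptors LRP5 and LRP6 they halt the destruction complex of AXIN, APC, GSK3 and casein kinase, so that beta-catenin accumulates and works with TCF/LEF factors on target genes. Other WNT signals run through frizzleds, ROR receptors and RYK without beta-catenin. Several dickkopf (DKK) and SFRP proteins act outside the cell as inhibitors, and the pathway shapes lung development and airway progenitors.

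The secreted inhibitor DKK1 was 4.18-fold lower in WZR6, and DKK3 was lower still on its brightest probe set but not on all of its probe sets, while several receptors, namely FZD7, LRP6, FZD6, ROR1, FZD1 and FZD3, and the factor TCF7L1 were moderately higher. Other receptors and effectors went the other way: FZD5 (-0.49 log2), FZD2 (-0.23), TCF7L2 (-0.28) and GSK3B (-0.22) were called lower. WNT ligands showed almost no calls, and WNT7B, lower in WZR6, was the exception. Each gene was represented by its brightest probe set, and a call is an adjusted p under 0.05 in limma over all 11963 genes. Of the 42 genes 8 were called higher, 7 lower and 27 were not called. The 15 calls make up 35.7% of the members, against 48.0% of all genes (24.5% higher and 23.5% lower). A difference of at least 0.5 log2 was called for 9 members, against 17.4% of all genes, and one of at least 1 log2 for 2 members, against 4.78%. The median difference was 0.10 over the members and 0.02 over all genes. Under median centring of the arrays the split was 13 higher and 7 lower, since DKK2, RNF43, WNT2, WNT2B and WNT4 were then called higher. That setting also moved the median difference of all genes, to 0.06, and the share of all genes called under it was not computed. DKK2, WNT2, WNT2B and WNT4 had both means below the lower quartile of all values. The groups did not overlap for 20 members, against 56.3% of all genes. At the level of single probe sets 13 of 72 were higher (21.6% of all 22215 were) and 10 lower (19.5%), so 31.9% were called against 41.1%. The groups did not overlap for 30 of them (51.1% of all), 12 were called at 0.5 log2 or more (15.4%) and 2 at 1 log2 or more (3.79%). In bulk samples fewer cells with a transcript and less of it per cell cannot be told apart.

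Low signal was common among the members. The lower quartile of all log2 intensities, 5.27, serves here as a mark of dim probe sets, because the table has no detection calls. Both group means lay under it for 15 of the 42 members, against 18.7% of all genes. By limma 0 of these 15 were called (3 had an unadjusted p under the threshold), against 8.73% of all such genes. Among genes whose mean over 6 arrays exceeded the quartile, 27 members remained and 55.6% were called, against 60.1% of all genes; DKK3 passed this filter through its parental level. Above the median of all values, 7.38, 16 members remained and 81.2% were called, against 74.3%.

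**Figure D1:**
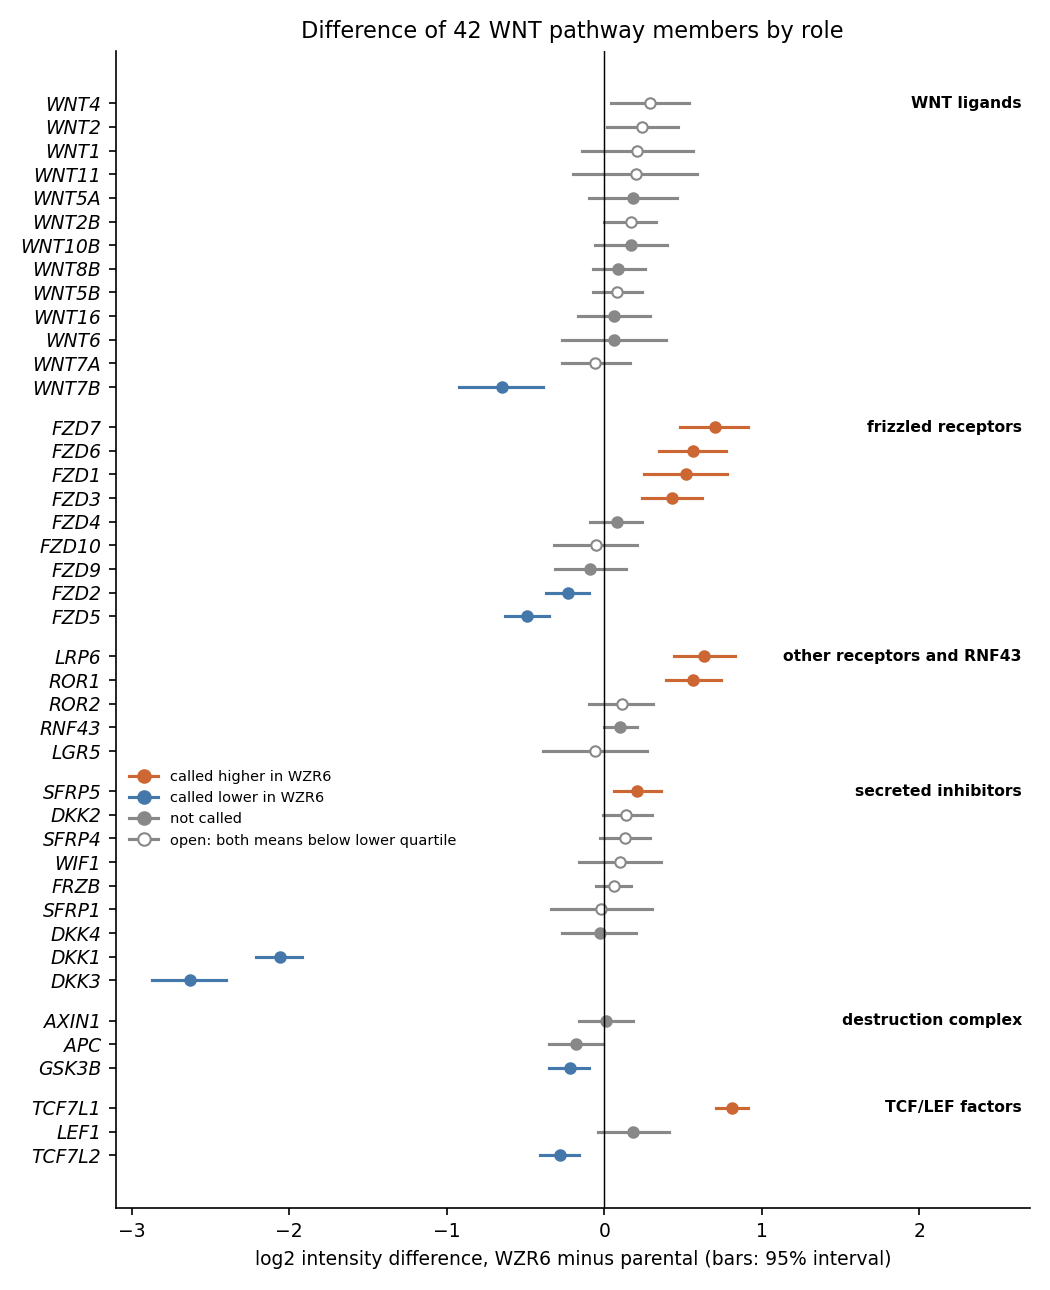
Difference in log2 intensity, WZR6 minus parental, for the 42 member genes grouped by role, with 95% intervals of the limma fit (3 arrays per group). Orange points were called higher, blue points lower and grey points neither, and open points had both group means below the lower quartile of 5.27. DKK3 and DKK1 stand at -2.63 and -2.06, apart from the other members, which lie between -0.65 and 0.81.

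The arrays and cells were checked first. Log2 intensities correlated with r of 0.9978 to 0.9983 within a group and 0.9815 to 0.9826 across groups. Epithelial markers fell for 4 of 5 genes. The log2 differences were -6.26 for EPCAM, -5.69 for CDH1, -1.71 for KRT19 and -0.22 for KRT8, and KRT18 was not called, at -0.12. Their summed intensity, with KRT18 the brightest marker in both groups, was 39855 to 40100 in parental samples and 22866 to 23623 in WZR6. The lung factor NKX2-1 fell too, while the surfactant genes SFTPB and SFTPC differed by 0.00 and 0.01 log2. Leukocyte markers summed to 502 to 562 in parental samples and 281 to 308 in WZR6, with CD14 and ITGB2 lower and PTPRC, which defines leukocytes, below the lower quartile in both groups. Fibroblast markers summed to 2115 to 2297 and 1187 to 1207, with COL1A1 and COL1A2 lower (-3.00 and -0.56 log2), PDGFRB higher (0.66), DCN not called, and COL3A1 and LUM below the quartile in both groups. Endothelial markers summed to 242 to 270 and 264 to 285, with CDH5 higher (0.89), PECAM1 and VWF not called and KDR below the quartile in both groups. The part of these marker shifts in the WNT results was not tested.

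Of the 13 WNT ligand genes measured, 1 was called lower, 0 were called higher by limma and 12 were not called (3 of these had an unadjusted p under the threshold). The share called was 7.69%, against 48.0% of all genes. Of the 7 ligands with both means below the lower quartile 0 were called by limma, against 8.73% of all such genes. Of the other 6 only WNT7B was called, against 60.1% of genes with a mean above the lower quartile. WNT7B, a ligand of the lung epithelium in development, read 6.57, 6.31 and 6.56 in parental samples and 6.03, 5.77 and 5.68 in WZR6. Every WZR6 sample lay below every parental sample, and all 6 values were above the dim mark. The difference was -0.65 ± 0.11 (SE, 95% interval -0.92 to -0.39, adjusted p = 0.00249 in limma), or 1.57-fold, and it was -0.38 with a pseudocount of 50.

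The other 12 ligands differed by -0.06 to 0.29, and 7 of them had both means below the lower quartile. For 11 of the 12 the WZR6 mean was the higher one, with none of these called and 6 of them dim in both groups. The share of all genes with a higher WZR6 mean was not computed, so this count has no background to be read against. WNT4, which acts in kidney and reproductive tract development, read 4.79, 4.62 and 5.05 in parental samples and 5.08, 5.12 and 5.14 in WZR6, a difference of 0.29 ± 0.10 (SE, adjusted p = 0.0566). It was called under median centring, with a variance trend and without parental replicate 3. WNT5A, the best known ligand of the beta-catenin-independent branch, differed by 0.18 ± 0.12 on its brighter probe set (adjusted p = 0.254). Its dimmer probe set was called, at 0.32 ± 0.10 (adjusted p = 0.0372 over 22215 probe sets), with all 6 values below the lower quartile, and the groups did not overlap there. WNT2B showed the same split, with 0.17 on the brighter probe set and a call at 0.29 ± 0.08 on the dimmer one. WNT6 and WNT10B, both brighter than the dim mark, differed by 0.06 ± 0.14 and 0.17 ± 0.10 and were not called. Their 95% intervals, -0.27 to 0.39 and -0.06 to 0.40, still allow a modest change.

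Of the 9 frizzled receptors measured, 4 were higher, 2 lower and 3 not called. The share called was 66.7%, against 48.0% of all genes and 60.1% of genes with a mean above the lower quartile. The 66.7% counts FZD10, which had both means below that quartile, whereas the 60.1% leaves such genes out. FZD7, a receptor linked to stem cells and to epithelial tumors, read 7.51, 7.44 and 7.78 in parental samples and 8.22, 8.29 and 8.31 in WZR6. The WZR6 samples were tightly grouped above the parental ones. The difference was 0.70 ± 0.09 (SE, 1.62-fold, 95% interval 1.39 to 1.88, adjusted p = 0.000744), and its second probe set gave 0.67 ± 0.11.

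FZD6, a frizzled of the planar polarity branch, read 9.98, 10.20 and 10.30 in parental samples and 10.65, 10.71 and 10.80 in WZR6. The parental samples spread more, but none reached a WZR6 value, and the rise was 0.56 ± 0.09 (1.47-fold, adjusted p = 0.00177). FZD1, a broadly expressed receptor, read 7.28, 7.34 and 7.72 against 8.00, 7.92 and 7.98. Parental replicate 3 was the highest of its group and still below all WZR6 samples. FZD1 rose by 0.52 ± 0.11 on this probe set (adjusted p = 0.00801) and by 0.45 ± 0.10 on the other, both called. FZD3, which guides axons and cell polarity, rose by 0.43 ± 0.08 (adjusted p = 0.00359).

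FZD5 and FZD2 went the other way. FZD5, a frizzled used by Paneth cells of the gut, read 8.69, 8.81 and 8.78 in parental samples and 8.36, 8.20 and 8.26 in WZR6. All WZR6 values were lower, by 0.49 in the mean (SE 0.06, 1.40-fold, adjusted p = 0.000498). Its second probe set, which lies above the dim mark, differed by -0.07 ± 0.09 and was not called, so the call of FZD5 rests on 1 of its 2 probe sets, and the mean of both gave -0.28. FZD2 fell by 0.23 ± 0.05 (adjusted p = 0.0108). FZD4, FZD9 and FZD10 were not called, with differences of 0.08, -0.09 and -0.05, and FZD10 had both means below the lower quartile.

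**Figure D2:**
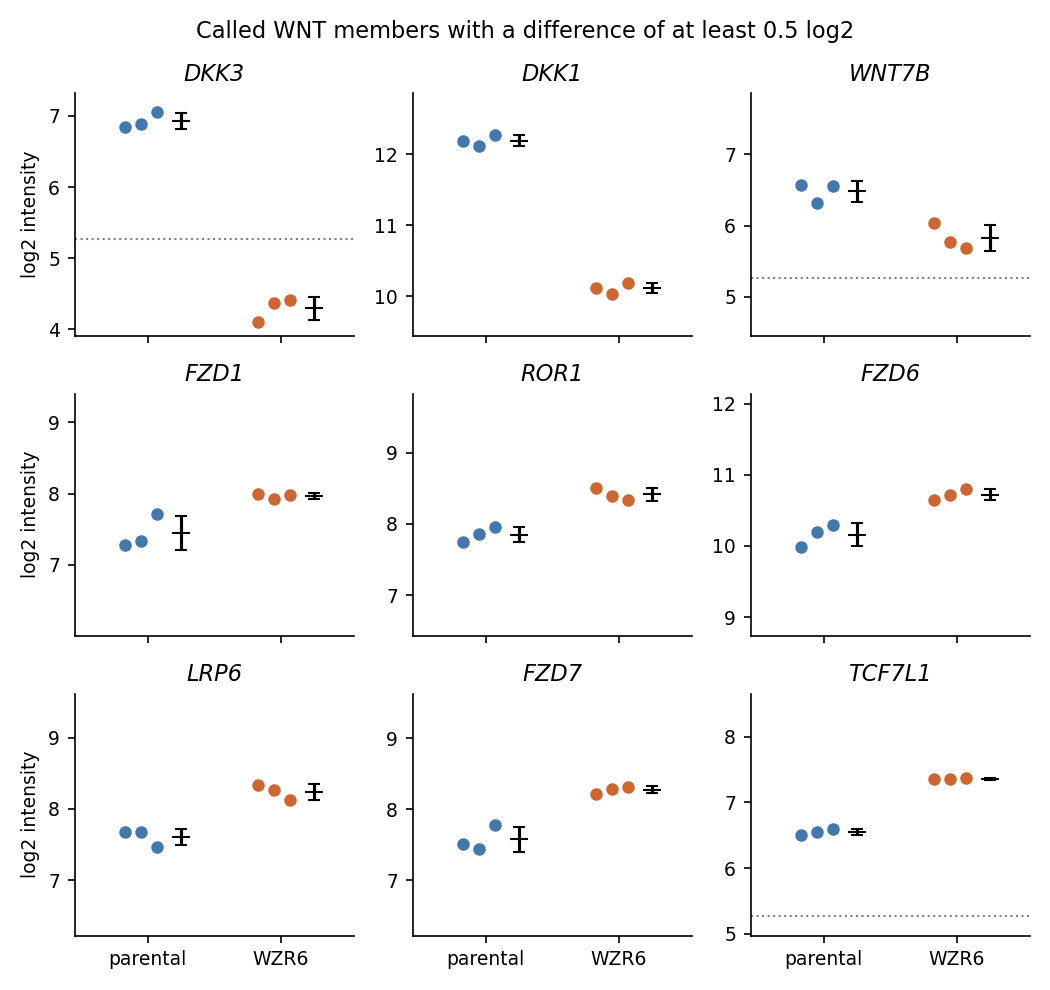
Log2 intensity in each of the 3 parental (blue) and 3 WZR6 (orange) samples for the 9 member genes called with a difference of at least 0.5 log2; the bar beside each group is the mean ± SD, and the dotted line, where in range, is the lower quartile of all values, 5.27. The groups do not overlap in any panel, which the choice of called genes favours, and 56.3% of all genes had no overlap. DKK3 drops below the dotted line in all WZR6 samples.

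Among the other receptors and their regulators LRP6 and ROR1 rose, and LGR5, RNF43 and ROR2 were not called. LRP6, the co-receptor that carries the signal to the destruction complex and is the binding partner of DKK1, read 7.67, 7.68 and 7.47 in parental samples and 8.34, 8.26 and 8.12 in WZR6. The lowest WZR6 sample lay well above the highest parental one. LRP6 rose by 0.63 ± 0.08 (SE, 1.55-fold, 95% interval 1.36 to 1.77, adjusted p = 0.000659). Its second probe set differed by 0.27 ± 0.10 and was not called (adjusted p = 0.0614 in limma over probe sets). The groups barely missed overlapping there, at 7.33 for the lowest WZR6 value and 7.32 for the highest parental one. Of all probe sets 51.1% had groups that did not overlap.

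ROR1, a receptor tyrosine kinase-like protein for WNT5A-type signals, read 7.74, 7.86 and 7.95 in parental samples and 8.51, 8.39 and 8.34 in WZR6. The groups were clearly apart. The rise was 0.56 ± 0.07 (1.48-fold, 1.31 to 1.67, adjusted p = 0.000668), and the second probe set rose by 0.60 ± 0.05. FZD1, FZD7 and ROR1 were the 3 of 16 members with several probe sets for which every probe set was called in the same direction, and 0 of the 16 had probe sets called in opposite directions. The matching shares over all genes with several probe sets were not computed, so these counts have no background to be read against. ROR2, the relative of ROR1, had both means below the lower quartile and differed by 0.11 ± 0.09.

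LGR5, an R-spondin receptor and stem cell marker that WNT signaling induces, read 4.38, 4.86 and 4.52 in parental samples and 4.40, 4.47 and 4.72 in WZR6. The groups overlapped fully, and every value was below the dim mark. RNF43, a ubiquitin ligase that removes frizzleds from the surface and is itself induced by the pathway, read 7.68, 7.62 and 7.70 against 7.78, 7.79 and 7.74. The groups did not overlap, yet the difference of 0.10 ± 0.04 was not called (adjusted p = 0.0959); it was called under median centring, at 0.14 with an adjusted p of 0.0337, with a floor at the lower quartile and among genes above the median level.

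Secreted inhibitors held both the largest changes and many dim members. Of 9 genes measured, 2 fell, 1 rose and 6 were not called, 5 of these 6 with both means below the lower quartile. The share called was 33.3%, against 48.0% of all genes. DKK1, which binds LRP6 and blocks its use by WNT, read 12.18, 12.11 and 12.27 in parental samples and 10.12, 10.04 and 10.19 in WZR6. The samples of each group lay within a narrow band, and the WZR6 level stayed far above the dim mark. DKK1 fell by 2.06 ± 0.06 (SE, 4.18-fold, 95% interval 3.77 to 4.64, adjusted p = 1.21e-06).

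DKK3, a divergent dickkopf grouped here with the inhibitors by family name only and silenced in many carcinomas, read 6.85, 6.88 and 7.06 in parental samples and 4.11, 4.37 and 4.41 in WZR6. All WZR6 values were below the lower quartile, so the size of the fall depends on how low values are treated. It was -2.63 ± 0.10 as deposited (SE, adjusted p = 2.97e-06), -1.66 with a floor at the lower quartile, -1.30 with a pseudocount of 50 and -0.65 as the mean of its probe sets, called each time. This result rests on 1 probe set. The other 4 probe sets of DKK3 never exceeded 4.69 on any array, and 1 of them was called, at -0.52 ± 0.14, while the rest differed by -0.18 to 0.06. Probe sets with names ending in _x_at or _s_at may bind more than a single transcript; with them left out, the brightest remaining DKK3 probe set differed by 0.04 (adjusted p = 0.537).

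SFRP5, a soluble frizzled-like decoy, rose by 0.21 ± 0.06 (adjusted p = 0.0319), a call that ended under cyclic loess (adjusted p = 0.122), with the floor (0.0542), with a variance trend (0.0941) and in 5 of the 6 fits that left out 1 array (0.0723 to 0.0968). DKK4 was not called, at -0.03 ± 0.10. DKK2, FRZB, SFRP1, SFRP4 and WIF1 lay below the lower quartile in both groups and differed by -0.02 to 0.14.

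**Figure D3:**
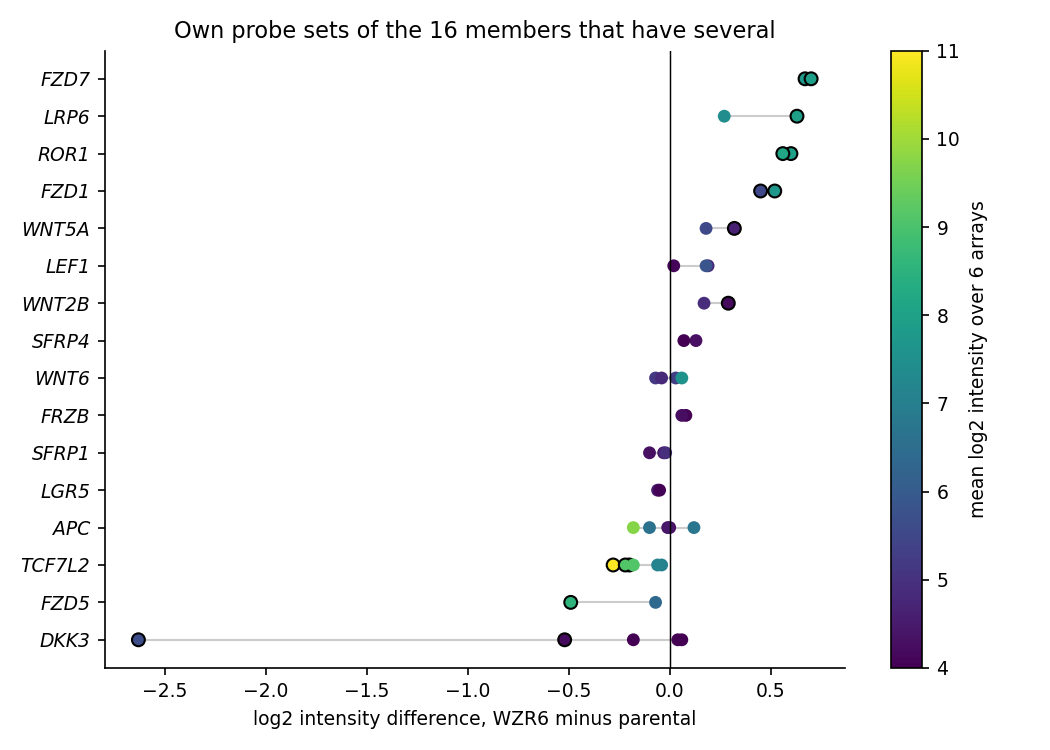
Each point is 1 probe set of the 16 member genes that have several, placed by its log2 difference, WZR6 minus parental, and shaded by its mean log2 intensity over 6 arrays; black rims mark probe sets called over all 22215. Probe sets of FZD7, ROR1 and FZD1 lie close together, while those of DKK3 run from -2.63 to 0.06, and a dim one of them, at -0.52, was called.

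The sequences just before the starts of DKK1, TCF7L1 and TCF7L2 are shown because these members changed and because DKK1 and TCF7L2 were the members with a match to a TCF/LEF core motif there. The motifs CTTTGAT and CTTTGTT were searched on both strands of the 250 bases before each RefSeq start (GRCh38.p14); the same letters cannot match both, and matches are in capitals. CTTTGAT was found in 2.27% of 34943 such windows and in 0 of the 35 windows of the 28 members that had one. CTTTGTT was found in 4.51% of all windows and in 2 of the 35 member windows. In DKK1 the match runs from 76 to 70 bases before the start (chr10:52314031-52314280, plus strand), and in TCF7L2, for 1 of its 3 listed starts, from 133 to 127 bases before it (chr10:113126383-113126632, plus strand). TCF7L1 (chr2:85133142-85133391, plus strand) had no match in this window. A match is a description of letters and not a binding site.
DKK1: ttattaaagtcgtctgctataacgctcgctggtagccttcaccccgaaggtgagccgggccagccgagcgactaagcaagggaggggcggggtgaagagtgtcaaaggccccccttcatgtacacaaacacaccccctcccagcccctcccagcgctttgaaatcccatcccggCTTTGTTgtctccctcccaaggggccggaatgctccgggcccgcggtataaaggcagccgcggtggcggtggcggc
TCF7L1: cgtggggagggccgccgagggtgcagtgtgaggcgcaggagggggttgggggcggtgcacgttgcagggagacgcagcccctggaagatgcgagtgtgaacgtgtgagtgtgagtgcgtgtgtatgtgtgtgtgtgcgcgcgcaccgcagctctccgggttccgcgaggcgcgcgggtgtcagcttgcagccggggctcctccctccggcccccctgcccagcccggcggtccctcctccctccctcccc
TCF7L2: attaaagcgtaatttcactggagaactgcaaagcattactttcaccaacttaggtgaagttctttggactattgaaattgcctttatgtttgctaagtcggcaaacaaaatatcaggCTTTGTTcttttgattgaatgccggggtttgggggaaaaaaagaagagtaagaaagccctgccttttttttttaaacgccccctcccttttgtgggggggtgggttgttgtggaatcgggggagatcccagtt

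Of the 3 destruction complex genes among the members, 1 was called (33.3%, against 48.0% of all genes), and none differed by more than 0.22 log2. AXIN2 was not analysed. Casein kinase genes, counted with the further pathway genes below, moved both ways. CSNK1A1 fell by 0.28 ± 0.04 (3 of 7 probe sets called lower) and CSNK1D rose by 0.29 ± 0.06 (1 of 3 called higher), while CSNK1E was not called. GSK3B, the kinase that marks beta-catenin for destruction, read 9.28, 9.41 and 9.28 in parental samples and 9.10, 9.11 and 9.10 in WZR6. The WZR6 values were nearly identical and all lower, by 0.22 ± 0.05 (SE, 1.17-fold, adjusted p = 0.0110). APC, the scaffold lost in most colon cancers, read 9.76, 9.75 and 9.98 against 9.66, 9.60 and 9.68 on its brightest probe set. The groups did not overlap, but the difference of -0.18 ± 0.07 was not called (adjusted p = 0.0745). It was called under cyclic loess (-0.22, adjusted p = 0.0349), with a pseudocount of 50, with a variance trend and among genes above the median level. The 5 APC probe sets ran from -0.18 to 0.12, with 0 called by limma in either direction. AXIN1, the limiting scaffold, differed by 0.01 ± 0.07 (95% interval -0.16 to 0.18).

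TCF/LEF factors split. TCF7L1, a family member that often represses targets, read 6.51, 6.55 and 6.59 in parental samples and 7.35, 7.35 and 7.37 in WZR6. Both groups were very tight and far apart, and TCF7L1 rose by 0.81 ± 0.04 (SE, 1.75-fold, 95% interval 1.64 to 1.88, adjusted p = 1.18e-05) on its single probe set, an _s_at one. TCF7L2, the main partner of beta-catenin in gut epithelium, read 11.41, 11.38 and 11.50 against 11.11, 11.13 and 11.21. All WZR6 values were lower, by 0.28 ± 0.05 (1.22-fold, adjusted p = 0.00387). Its 6 probe sets ranged from -0.28 to -0.04 and 3 were called lower, and their mean gave -0.16. LEF1, a factor that WNT signaling also induces, read 5.68, 5.77 and 5.78 against 6.05, 6.02 and 5.72. WZR6 replicate 3 lay within the parental range and the other two above it, and the difference of 0.18 ± 0.09 was not called (adjusted p = 0.152). Without that sample it was 0.29, with an adjusted p of 0.00818 in limma. Leaving it out removed the only overlap, so this p-value cannot decide whether LEF1 rose. LEF1 was not called when any other array was left out. Its dimmer probe sets, with both means below the lower quartile, differed by 0.19 and 0.02 and were not called. The mean of its probe sets gave 0.13 and was called (adjusted p = 0.0384 in limma).

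The calls were set beside those of chromosomal neighbours, to show where a member lies in a stretch that moved as a whole. For each member the median difference of the 10 nearest measured genes on each side was taken, in RefSeq order. These medians ran from -0.52 to 0.31, and 3 of 42 exceeded 0.3 in size: FZD9 (-0.52), RNF43 (-0.35) and WNT4 (0.31). FZD9 and RNF43 themselves differed by -0.09 and 0.10 and were not called, although 14 and 13 of their 20 neighbours were called lower. DKK3 fell among neighbours with a median of 0.26, of which 13 of 20 were higher. DKK1, TCF7L1 and LRP6 had neighbour medians of -0.04, 0.05 and 0.04. FZD7 and FZD1 rose among neighbours with medians of -0.19 and -0.21, whereas FZD3 and its neighbours, with a median of 0.27, moved the same way.

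**Figure D4:**
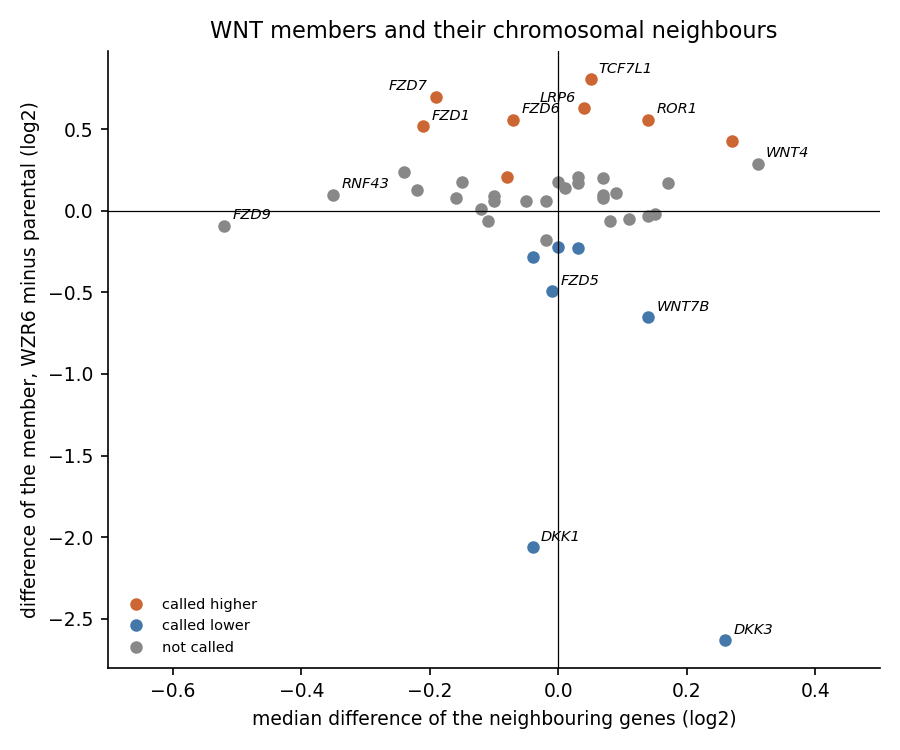
Each point is 1 of the 42 member genes, placed by the median log2 difference of its nearest measured neighbours (horizontal) and its own log2 difference, WZR6 minus parental (vertical); colours show the call. DKK1 at -2.06 and TCF7L1 at 0.81 have neighbour medians near 0, and DKK3 at -2.63 lies opposite to its neighbours' 0.26.

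A further 41 genes of the pathway were measured from a fixed list of 57. Of these 10 rose, 10 fell and 21 were not called, so that 48.8% were called, close to the 48.0% of all genes. The TLE corepressors, which bind TCF factors and keep targets off, changed in all 4 measured genes and in both directions. TLE4 read 7.39, 7.43 and 7.44 in parental samples and 9.24, 9.15 and 9.34 in WZR6. The gap far exceeded the spread, and TLE4 rose 3.53-fold (3.22 to 3.88, adjusted p = 1.37e-06), with 2 of its 3 probe sets called and 1.11 log2 as their mean. TLE2 fell 2.02-fold (1.83 to 2.22, adjusted p = 2.04e-05), TLE3 1.36-fold, and TLE1 rose 1.23-fold, with 2 of its 3 probe sets called and a range of -0.08 to 0.48.

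The CELSR cadherins of planar cell polarity also split. CELSR1 fell by 0.75 ± 0.05 on its brightest probe set, but its 3 probe sets ran from -0.75 to 0.12, with 2 called, and their mean gave -0.28. CELSR3 fell by 0.66 ± 0.06, while CELSR2 rose by 0.70 ± 0.13, and VANGL1, of the same polarity system, rose by 0.45 ± 0.07. CTNNB1, which encodes beta-catenin, read 13.10, 13.05 and 13.21 in parental samples and 12.76, 12.77 and 12.94 in WZR6. All WZR6 values were lower, by 0.30 ± 0.07 (SE, 1.23-fold, adjusted p = 0.0104 in limma). BTRC, the ubiquitin ligase adaptor that recognizes phosphorylated beta-catenin, fell by 0.63 ± 0.09 on 1 of 3 probe sets, with a mean of -0.26, and the receptor RYK by 0.45 ± 0.05, among neighbours with a median of -0.37. TNKS, which promotes AXIN turnover, rose by 0.56 ± 0.05 on 1 of 3 probe sets, with a mean of 0.26. CTNNBIP1, an inhibitor of beta-catenin binding to TCF, rose by 0.48 ± 0.11, among neighbours with a median of 0.37, and TPBG by 0.32 ± 0.04. The dishevelled genes DVL1, DVL2 and DVL3 were not called, at 0.15, 0.07 and 0.11 (0 of 3 in limma, 1 with an unadjusted p under the threshold).

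Transcripts known as targets of WNT and beta-catenin moved both ways: of 14 measured from a list of 22, 3 rose, 4 fell and 7 were not called, beside the 48.0% called of all genes. BAMBI, a decoy receptor for TGF-beta, read 9.83, 9.88 and 9.93 in parental samples and 11.03, 11.05 and 11.03 in WZR6. It rose 2.22-fold (95% interval 2.07 to 2.39, adjusted p = 3.26e-06), and the groups were far apart. SOX9, a progenitor factor, rose by 0.50 ± 0.05 and MYC by 0.27 ± 0.04. CCND1, which encodes cyclin D1, read 10.36, 10.61 and 10.19 against 9.81, 9.63 and 9.50. All WZR6 samples were lower, and the fall was 0.74 ± 0.12 (1.67-fold, adjusted p = 0.00227) among neighbours with a median of -0.26. TIAM1, NRCAM and BMP4 fell by 0.26, 0.24 and 0.23, and these 3 calls ended in some alternatives, such as the mean of probe sets for TIAM1 (-0.11) and the floor for NRCAM (-0.00). CD44, an adhesion receptor, was not called on its brightest probe set, at 0.04, although 5 of its 8 probe sets were called higher, in a range of -0.09 to 0.64. The count of falls, 4, was 2 without parental replicate 1 or without WZR6 replicate 3. Many of these genes answer to other pathways as well, so the list is not a readout of WNT alone.

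**Figure D5:**
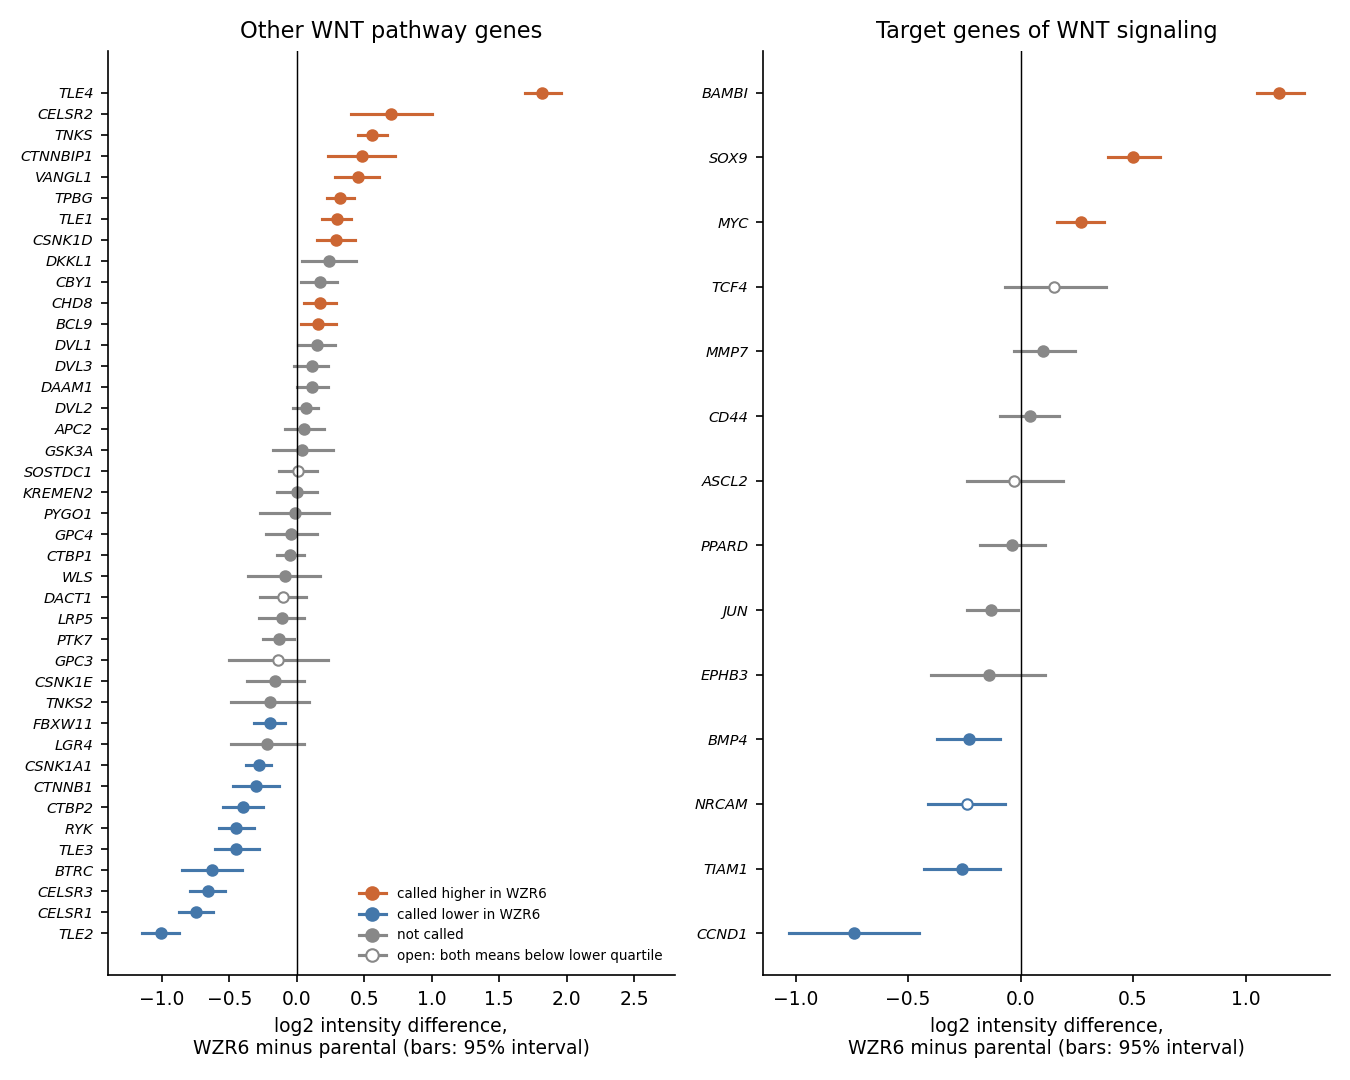
Difference in log2 intensity, WZR6 minus parental, with 95% intervals, for 41 other WNT pathway genes (left) and 14 target genes (right), colours and open points as in the plot of the members by role. TLE4 at 1.82 and BAMBI at 1.15 lead the rises, and TLE2 at -1.01 and CCND1 at -0.74 the falls.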

How the data were processed

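Biotin-labelled RNA of 6 samples was hybridised to 1 oligonucleotide array each. The deposited linear intensity values, 1 for each probe set on each array, were made by the authors with RMA, per the submitters' processing notes, which name no version or settings of RMA. Array medians were 163 to 170. RMA draws the arrays to a common distribution, so a shift of most genes would not show.

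The log2 of each value was taken, without a pseudocount. After 62 control probe sets were set aside, WZR6 was compared with parental samples, grouped by title, over 22215 probe sets and over 11963 genes (brightest own probe set over 6 arrays) with limma 3.58.1 in R 4.3.3 (lmFit, eBayes, two-sided, Benjamini-Hochberg). Differences are WZR6 minus parental. Adjusted p-values and counts come from the gene fit unless probe sets are named. The script was tested on simulated data. Figures used matplotlib 3.10.9 in Python 3.11.15. With 3 arrays per group, their number limits the precision.

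Names came from the platform annotation, for probe sets with 1 symbol. AXIN2, TCF7, SFRP2 and PORCN, and 2 probe sets that name a member with another gene, were not analysed here. Neighbour order came from RefSeq GRCh38.p14, matched by Entrez identifier for 11953 genes, and promoter sequence from RefSeq, same build. Values in every sample are given for members called at 0.5 log2 or more and for LEF1, LGR5, RNF43, LRP6, APC and GSK3B; of the other lists up to 6 called genes in each direction were to be named, and CTNNB1. WNT4, CD44, TLE, DVL and CSNK1 genes and further members were named after their values were seen. Members and lists were chosen with earlier results of these data known.

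Same-numbered samples of the groups had residual correlations of -0.0119, 0.115 and 0.226, so the numbers were not taken to pair them. Alternatives were cyclic loess, median centring, quantile normalization, 2 filters on dim probe sets, a floor, a pseudocount of 50, a variance trend, the replicate number as a block, other probe set rules and leaving out each array.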

Additional observations from a re-analysis of the deposited data

How the results depend on the processing

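Of 35 called genes followed through the alternatives, 29 kept the call and its direction in every alternative that measured them. BMP4, DKK3, FZD5, NRCAM, SFRP5 and TIAM1 did not. In the other direction, 9 named genes that were not called in the main fit were called in at least 1 alternative. These were APC, DKK2, LEF1, RNF43 and the ligands WNT2, WNT2B, WNT4, WNT5A and WNT11. Of the 993 single-gene values recomputed, 1 changed sign against a call: DKK3, at 0.04 without _x_at and _s_at probe sets. Where neither setting passed the threshold, a change of sign was not counted. Without _x_at and _s_at probe sets fewer probe sets were tested, and 6 of 35 member probe sets were higher and 4 lower, against 13 and 10 of 72; at the gene level fewer members were measured and 4 were lower, against 7 of 42, and 1 target was higher and 2 lower. The called members TCF7L1, FZD7, GSK3B and SFRP5 have only _s_at probe sets, so the fit without such probe sets did not measure them. Median centring gave 13 higher members, against 8, and the share of all genes called under it was not computed. With probe sets averaged by gene, 5 targets were higher and 2 lower, against 3 and 4; the cause was not tested.

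Leaving out 1 array gave 7 to 9 higher and 7 lower member genes, 10 to 14 higher and 7 to 10 lower member probe sets, 8 to 10 higher and 10 to 12 lower pathway genes, and 3 to 4 higher and 2 to 4 lower targets. With the replicate number as a block, 8 members were higher and 7 lower, 11 member probe sets higher and 10 lower, and NRCAM was no longer called (adjusted p = 0.0724). Not every sample correlated best with its own number. Dim signal limits what can be said of the 15 members under the lower quartile.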
